A study of Arabidopsis thaliana with 4 samples.

Results

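The loss of RDR6 was examined in plants whose cytoplasmic mRNA decay was otherwise intact, by setting the small RNA library of the Arabidopsis thaliana line rdr6-11 against that of the wild type Col-0. These were chosen by their genotype labels and are 2 of the 4 libraries of the study. All 33602 loci of the deposited count table were compared. The other libraries come from the decay mutant ein5-1 ski2-3 (the double mutant) and from rdr6-11 ein5-1 ski2-3 (the triple mutant). EIN5 is a 5′ to 3′ exoribonuclease of the cytoplasm, and SKI2 a helicase that assists the exosome. Every library was made from aerial tissue of 18-day-old plants, as RNA below 200 nt, and each genotype has 1 library. The labels do not say how many plants went into a library. The allele rdr6-11 is carried by rdr6-11 and the triple mutant, and Col-0 and the double mutant have the wild-type gene.

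RDR6 copies single-stranded RNA into double-stranded RNA, which Dicer-like enzymes cut into small interfering RNAs (siRNAs). Its best known templates are the noncoding TAS transcripts, which a microRNA (miRNA) guides into the pathway and which then yield trans-acting siRNAs (tasiRNAs). Some protein-coding transcripts take the same route after a miRNA or a tasiRNA has cut them, among them pentatricopeptide repeat (PPR) genes, NLR immune receptor genes and auxin receptor genes. A miRNA gene itself needs no RDR6, since its transcript folds into its own double strand. Because mRNA decay and RDR6 can act on the same cut transcripts, wild-type decay is the setting in which the usual RDR6 templates are seen.

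The miRNAs named in the results are shown first, because 17 of the 22 loci that were clearly lower in rdr6-11 hold a site for at least 1 of them. Of all 32835 loci searched, 72 (0.219%) hold such a site. The miRNAs were chosen as known guides of TAS, PPR, NLR and auxin receptor transcripts, so the count was partly set by that choice. Sequences were read from the RefSeq TAIR10.1 genome through its annotation, 5′ to 3′, and capitals mark the seed, bases 2 to 8. miR173-5p, miR828, miR393a-5p and miR472-3p have 22 bases, and the others 21. No 2 of the mature sequences shown have the same seed.
miR173-5p: uUCGCUUGcagagagaaaucac
miR390a-5p: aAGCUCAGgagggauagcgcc
miR828: uCUUGCUUaaaugaguauucca
miR161.1: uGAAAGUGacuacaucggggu
miR161.2: uCAAUGCAuugaaagugacua
miR400: uAUGAGAGuauuauaagucac
miR393a-5p: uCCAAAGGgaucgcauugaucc
miR472-3p: uUUUUCCUacuccgcccauacc

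Facing sites in the transcripts are shown next, because most of the 22 loci hold one. Genes that were not called hold such sites too, and AT1G62590 and AT1G63330 are shown as examples. Capitals mark the bases that face the seed. A penalty of 0 is a perfect complement. A mismatch costs 1 and a G:U pair 0.5, both doubled at miRNA positions 2 to 13. The miR173 sites of TAS1A and TAS1C are identical, at bases 367 to 388 of both transcripts, and those of TAS2 and TAS1B differ from them and from each other outside the seed match. TAS3A holds a pair of miR390 sites, at bases 609 to 629 and 853 to 873.
TAS1A and TAS1C, miR173: gugauuuuucucuaCAAGCGAa
TAS2, miR173: gugauuuuucucucCAAGCGAa
TAS1B, miR173: gugauuuuucucaaCAAGCGAa
TAS3A first site, miR390: gguguuauccuauCUGAGCUu
TAS3A second site, miR390: uugucuaucccucCUGAGCUa
TAS3C, miR390: guuucuauuccucCUGAGCUu
AT1G63130, RPF3 and AT1G62910, miR161.2: uagucacuuucagCGCAUUGa
AT1G62590 and AT1G63330, miR161.2: uagucacguucaaUGCAUUGa
AFB2 and AFB3, miR393: gaaacaaugcgaucCCUUUGGa
AT3G23690, miR393: gggucagagcgaucCCUUUGGc
AT5G43740, miR472: gguauggggggaguAGGAAAAa

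The table held 808276 reads for Col-0 and 878632 for rdr6-11, so that 1 read is worth 1.24 and 1.14 RPM (reads per 1000000 table reads). Reads fell on 17655 loci in Col-0 and 17106 in rdr6-11, and 465 and 494 loci held at least 50. A locus was called when reads scaled to the table total, with a pseudocount of 1 read, differed by 4-fold or more and the library with more reads held at least 50. Loci with 10 to 49 reads and the same fold were called separately, as loci of moderate read number. With 1 library per genotype there is no replicate error and no test, and printed folds, made without the pseudocount, carry 95% intervals that cover counting error only. Log2 folds carry the pseudocount. Where rdr6-11 or Col-0 had 0 reads, 3 reads were put in its place, which is the upper limit at a count of 0, and the fold is a lower bound. RDR6 itself had 1 read in Col-0 and 0 in rdr6-11, too few to check the label. All 21 leaf marker genes listed had 10 reads or more, as had 1 of 6 root markers (PYK10, with 12 and 14 reads) and 0 of 7 flower markers.

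By this rule 22 loci were lower in rdr6-11 and 11 were higher, which is 3.9% and 1.95% of the 564 loci with 50 reads. The lower loci were 7 TAS loci, 14 protein-coding genes (9.09% of the 154 with 50 reads) and 1 pseudogene. In Col-0 they made up 62824 reads, 7.77% of the library, and in rdr6-11 368 reads, 0.0419%. No read was left in rdr6-11 at 5 of the 22. The median log2 fold over all 564 loci was -0.04. In whole aerial tissue, fewer cells of a type and fewer small RNAs per cell cannot be told apart. The 5 loci nearest to the lower side of the threshold without passing it were the protein-coding genes AT3G05330 (ATN), AT1G25570, AT2G07040 (PRK2A) and AT4G36930 (SPT) and the tRNA gene AT3G05525, with log2 folds from -1.92 to -1.23, while AT1G62910 was the locus just inside, at -2.63.

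**Figure D1:**
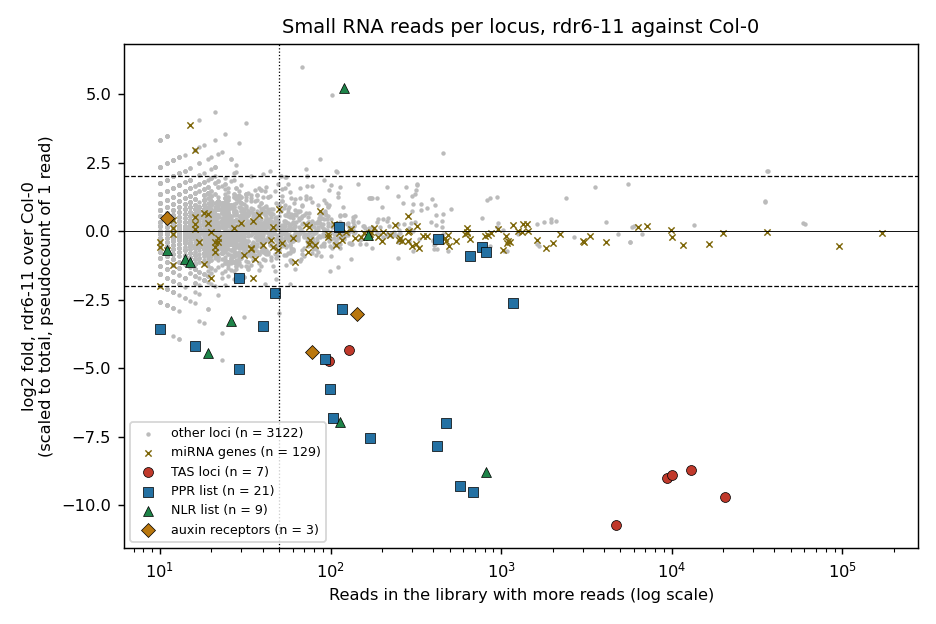
Each point is 1 locus with 10 reads or more, placed by its reads in the richer library (x, log scale) and by its log2 fold of rdr6-11 over Col-0 (y), with dashed lines at 4-fold and a dotted line at 50 reads. The TAS loci lie lowest at high read numbers, PPR genes range from near 0 to far below the lower line, and the miRNA genes lie around 0 at every depth above 100 reads.

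TAS transcripts held most of the reads that were lower in rdr6-11. TAS1A, TAS1C and TAS2 lie on chromosome 2, TAS1B on chromosome 1, TAS3A and TAS4 on chromosome 3, and TAS3B and TAS3C on chromosome 5. TAS2 had 20441 Col-0 reads and 26 rdr6-11 reads, TAS1C 12886 and 32, and TAS1A 9421 and 19. TAS3A, the source of the siRNAs that target auxin response factor genes, had 10056 and 22. TAS1B had 4691 and 2. The less read loci TAS3C and TAS3B had 129 and 6, and 98 and 3. In each of these 7 loci the wild-type count was more than 20 times the mutant count.

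The folds ranged from 23.4 (95% interval 10.4 to 64.9) at TAS3C to 2549.7 (705 to 21059.6) at TAS1B. TAS2 was 855-fold lower (583 to 1309), TAS1A 539-fold (345 to 896), TAS3A 497-fold (328 to 793) and TAS1C 438-fold (310 to 640). The intervals of TAS1A, TAS1C, TAS2 and TAS3A all overlap, so the folds of these loci are not separated beyond counting error. That of TAS1B overlaps those of TAS2, TAS1A and TAS3A, but not that of TAS1C. Over all 8 TAS loci the reads went from 57730 to 111, a 565-fold difference (469 to 687). TAS4, which miR828 guides and whose siRNAs target MYB genes, had 8 reads and 1 read and was below the minimum, so its dependence on RDR6 was not measurable at this depth in these libraries.

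Reads that were left at the TAS loci in rdr6-11 were spread over the same loci. In Col-0 TAS2 gave 35.4% of TAS reads, TAS1C 22.3%, TAS3A 17.4% and TAS1A 16.3%. Of the 111 reads in rdr6-11, TAS1C gave 28.8% (exact interval 20.6 to 38.2), TAS2 23.4% (15.9 to 32.4), TAS3A 19.8% (12.9 to 28.5) and TAS1A 17.1% (10.6 to 25.4). The Col-0 shares of TAS2 and TAS1B lay above, and those of TAS3C and TAS3B below, the counting intervals of rdr6-11, where TAS1B, TAS3C and TAS3B had 2, 6 and 3 reads. Per length, on the authors' RPKM scale, TAS2 had the highest level in Col-0 at 23897, followed by TAS1C at 15735, TAS3A at 12838, TAS1A at 12247 and TAS1B at 6760.4, and in rdr6-11 the same 5 loci had 28.4, 36.5, 26.2, 23.0 and 2.69 in that order. Loci as similar as TAS1A, TAS1B and TAS1C can share reads, and how the authors placed reads with several matches is not given in the sources used here. TAS1B also overlaps an annotated miRNA gene, miR5636.

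**Figure D2:**
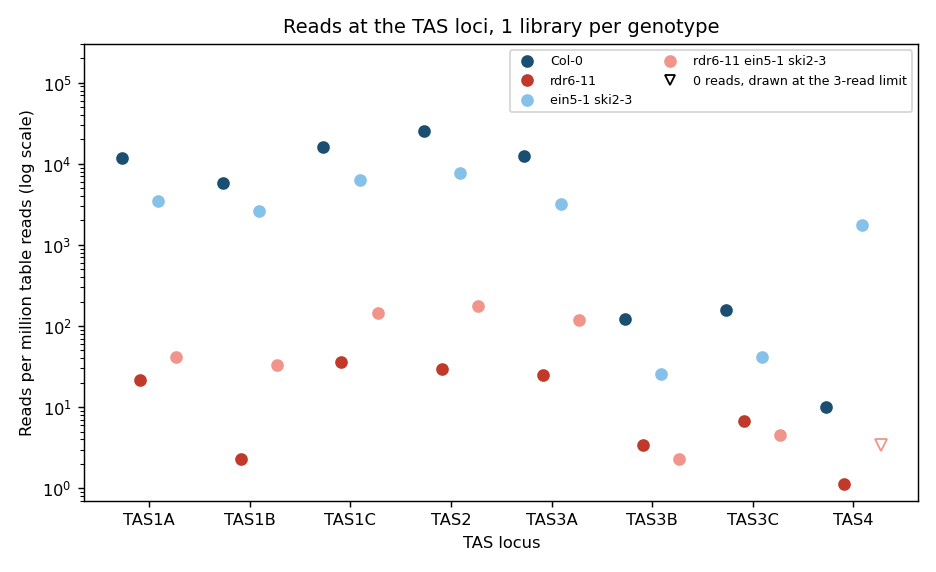
Points give the RPM (y, log scale) of the 8 TAS loci in the 4 libraries, and the open triangle marks a locus with 0 reads at the limit of 3 reads. For TAS1A to TAS3C both libraries with the rdr6-11 allele lie below both libraries without it, and TAS4 rises above 1000 RPM in the double mutant only.

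The miRNA genes that guide these transcripts were near their wild-type level. MIR173 had 2003 reads in Col-0 and 1616 in rdr6-11, MIR390A 1099 and 1418, and MIR390B 1044 and 1342. MIR161, which gives both miR161.1 and miR161.2, had 4122 and 3358. MIR393A had 262 and 222, MIR393B 919 and 1166, MIR400 224 and 222, and MIR472 117 and 123. None of the 8 genes measured was called, their summed reads were 9790 and 9467, and their median log2 fold was -0.09. The counts of the paired genes MIR390A and MIR390B, and of MIR393A and MIR393B, cannot be taken as independent, since the mature sequences of each pair are identical.

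PPR genes were the second group. They encode RNA-binding proteins of mitochondria and chloroplasts, and a set of them on chromosome 1 is known to be cut by miR161, miR400 and TAS-derived siRNAs. Of 27 listed loci 21 had 10 reads or more, 15 were lower in rdr6-11 (10 with at least 50 reads and 5 of moderate read number) and 6 were not called, with a median log2 fold of -3.58. Over all 3291 loci with 10 reads or more, 2.34% were lower, 2.86% were higher and the median log2 fold was 0.07. Over the 1156 protein-coding loci among them, 4.58% were lower and 6.49% higher. Summed reads of the list were 6849 and 2209, a 3.37-fold difference (3.21 to 3.54).

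AT1G63130 had 682 reads in Col-0 and 0 in rdr6-11, at least 247-fold lower. AT1G63150 had 574 and 0, at least 208-fold lower. No read of either gene was left in the mutant. RPF3 (AT1G62930), which takes part in processing of mitochondrial transcripts, had 422 reads and 1 read, a fold of 459 (81.9 to 18161). RPF2 (AT1G62670), a related processing factor, had 104 and 0, at least 37.7-fold lower. AT1G63080 had 472 and 3, AT1G63070 170 and 0, AT1G63630 99 and 1, and the pseudogene AT1G62860 93 and 3. Reads in all of these were close to absent from the mutant.

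A remainder was measured at other PPR genes. AT1G62910, the richest of the list in Col-0, had 1173 reads there and 205 in rdr6-11, a 6.22-fold difference (5.36 to 7.25). AT1G12775 had 117 and 17, a 7.48-fold difference (4.48 to 13.3). AT1G62590 had 776 and 563, AT1G63330 811 and 515, AT1G63400 658 and 382, AT5G41170 426 and 376, and AT1G06580 93 and 112. These 5 genes kept 50 reads or more in the mutant, and their differences were between 1.87-fold lower (1.65 to 2.13, AT1G63400) and 1.11-fold higher (0.834 to 1.47, AT1G06580). The remaining listed gene that was measured and not called, AT1G64580, had fewer reads, 29 in Col-0 and 9 in rdr6-11. The PPR loci are similar in sequence, so the authors' placement of reads could move counts between them.

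In the stretch of chromosome 1 from AT1G62590 to AT1G63630 the lower loci lay among unaffected neighbours. It holds 124 loci, of which 20 had 10 reads or more. Of 17 loci of the PPR list or family 14 were measured and 11 were lower, with a median log2 fold of -5.22. Of the 107 other loci 6 were measured and 0 were called, with log2 folds from -0.71 to 0.35. Among PPR genes outside the list, 512 in number, 15 were measured, 1 was lower and 1 was higher, with a median of -0.01. The list was drawn up with results of these libraries known, so its count is a description.

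**Figure D3:**
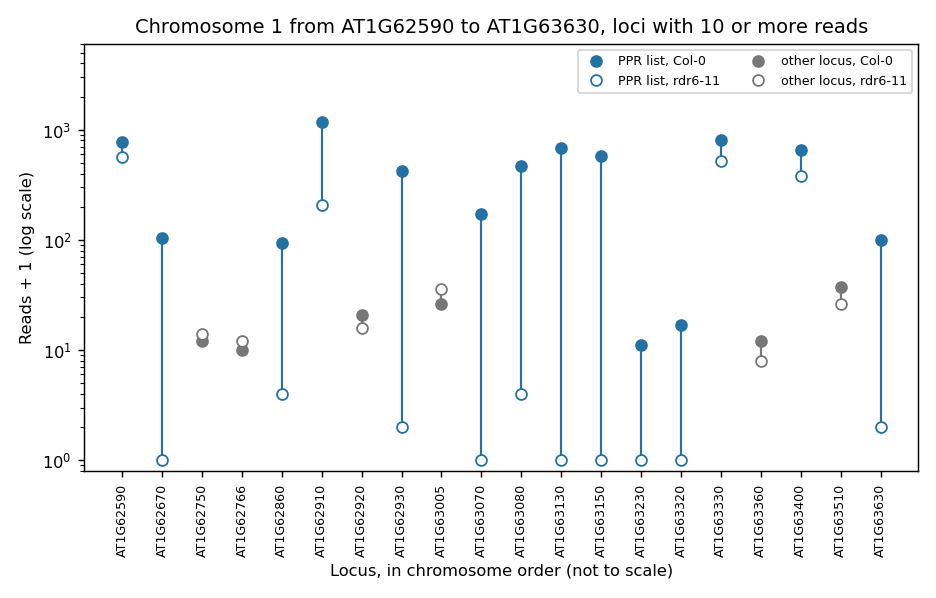
Filled points are reads plus 1 in Col-0 and open points reads plus 1 in rdr6-11 (y, log scale) at the 20 loci with 10 reads or more between AT1G62590 and AT1G63630, in chromosome order and not to scale. PPR loci (blue) drop to a few reads or none except AT1G62590, AT1G63330 and AT1G63400, with AT1G62910 in between, and the other loci (grey) differ little.

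NLR genes, which encode intracellular immune receptors, formed a smaller group. Of 22 listed genes 9 were measured, 4 were lower, 1 was higher and 4 were not called, beside 4.58% lower and 6.49% higher among protein-coding loci with 10 reads. Their median log2 fold was -1.12. This list too was drawn up with results of these libraries known, so its count is a description. AT5G38850, a TIR-class receptor gene, had 811 reads in Col-0 and 1 in rdr6-11, an 882-fold difference (158 to 34864). AT5G43740, a CC-class gene with a miR472 site, had 114 and 0, at least 41.3-fold lower, and its neighbour AT5G43730 had 19 and 0, at least 6.88-fold lower. AT5G63020, another miR472 gene, had 26 and 2. AT5G38850 supplied most of the 1211 reads that the list had in Col-0, and in rdr6-11 the list had 318.

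Other NLR genes differed from this. AT1G12290, which contains the MIR472 gene, had 165 and 161 reads. AT1G63750, a TIR-class gene, went the other way, with 2 reads in Col-0 and 120 in rdr6-11, a 55.2-fold difference (15.0 to 461). The locus length implied by the authors' values for AT1G63750 was 4511 bases in Col-0 and 4515 in rdr6-11. Outside the list, 11 of 135 NLR genes were measured, and 1 was lower, the TIR-class gene AT4G19510 with 17 and 3 reads.

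Auxin receptor genes and a transcription factor gene with miR393 sites made up the rest of the 22. AFB3 had 78 reads in Col-0 and 3 in rdr6-11, a 28.3-fold difference (9.32 to 140). AFB2 had 143 and 18, an 8.64-fold difference (5.27 to 15.0). Both encode F-box proteins that bind auxin. The third receptor gene measured, TIR1, had 7 and 11 reads and was not called. AT3G23690, a bHLH gene that is not on the receptor list, had 50 and 6, a 9.06-fold difference (3.88 to 25.9). A miR393 site with a penalty of at most 4 was found in 5 of 32835 loci, and 3 of them are these called genes.

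Sites of the guiding miRNAs were found in most of the 22 lower loci and in some loci that were not called. The miRNAs were chosen as known guides of TAS, PPR, NLR and auxin receptor transcripts, so sites there were partly set by that choice. A site with a penalty of at most 4 for any of the 8 mature sequences shown was found in 72 of the 32835 loci searched, 0.219%. It was found in 17 of the 22 lower loci, in 5 of the 55 lower loci of moderate read number, and in 0 of the 7 higher loci that could be searched. It was also found in 10 of the 444 loci with 50 reads that were not called. Of these 10, 4 are the genes MIR161, MIR400, MIR390A and MIR390B, and the others are AT1G06580, AT1G12290, AT1G62590, AT1G63330, AT1G63400 and AT5G41170. The 5 lower loci without one were TAS1B, TAS3A and TAS3B, whose best sites have penalties of 4.5, 5 and 5, and the protein-coding genes AT1G12775 and AT5G38850. A match is a description of the letters and does not show that the site is used, and other miRNAs and tasiRNAs were not searched in this count.

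Loci of moderate read number added 55 that were lower and 83 that were higher, 2.02% and 3.04% of the 2727 loci with 10 to 49 reads. Their median log2 fold over all 2727 was 0.10. The lower ones were 39 protein-coding genes (3.89% of 1002), 9 pseudogenes and 7 tRNA genes. Their reads summed to 842 in Col-0 and to 82 in rdr6-11, and 14 had no read in the mutant. The split depends on the settings. Scaled to reads at miRNA genes, 49 were lower and 122 higher, whereas 20 were lower and 17 higher at a fold of 8, and 10 and 5 with a pseudocount of 5 reads.

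Several of the 55 belong to the families described above. AT5G16640, a PPR gene with miR161 sites, had 29 reads in Col-0 and 0 in rdr6-11, at least 10.5-fold lower. AT1G12620 had 40 and 3, a 14.5-fold difference (4.62 to 73.2), and AT1G12300 47 and 10, a 5.11-fold difference (2.55 to 11.3). AT1G63320 had 16 and 0, and AT1G63230 10 and 0. AT3G20730, a PPR gene outside the list that overlaps 3 other annotated genes, had 23 and 1. AT4G14610, a pseudogene with a miR472 site, had 31 and 3.

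Genes of the silencing and tasiRNA pathways were also among the 55. Of 17 listed silencing genes 3 had 10 reads or more and 2 were lower, beside 4.58% of protein-coding loci with 10 reads. With so few genes and reads, and a list chosen with earlier results known, this is a description only. ARF4, an auxin response factor gene that TAS3 siRNAs target, had 18 reads and 1 read, a 19.6-fold difference (3.09 to 815). It was the only one of 10 listed tasiRNA targets with 10 reads. AGO1, the main effector protein of miRNAs and the only locus with a miR168 site within the penalty limit, had 12 and 1. DCL1, the enzyme that releases miRNAs, had 13 and 0, at least 4.71-fold lower, and it contains the MIR838 gene. AGO2, an Argonaute gene regulated by miR403, had 405 and 310 and was not called. Among 10 RNA decay genes none had 10 reads.

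The remaining lower genes of largest fold had no site searched here. CPA, a subunit of the actin capping protein, had 23 reads and 0, at least 8.33-fold lower, and it lies opposite to the tRNA gene AT3G05525, which had 111 and 48. AT3G26742, which codes for an uncharacterized protein, had 16 and 0. LAF3, a gene of phytochrome A signalling, had 13 and 0, and AT5G27440, which overlaps 2 genes on the other strand, had 12 and 0. ABCG40, an abscisic acid importer, and the kinase gene AT1G79640 each had 10 and 0. At these counts the bounds were from 3.62-fold to 5.80-fold, except that of CPA, so they depend on single reads. The 7 tRNA genes had 10 to 14 reads in Col-0 and 1 to 3 in rdr6-11, while all tRNA genes together were 1.25-fold lower (1.23 to 1.28).

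Of 58 listed miRNA targets outside these families only 10 had 10 reads or more. None of the 10 was called, which at a share of 4.58% lower among protein-coding loci says little, and their median log2 fold was -0.21. The HAM genes, transcription factors cut by miR171, had 98 and 92 (HAM1), 108 and 116 (HAM2), and 113 and 106 reads (HAM3). TOE2, a target of miR172, had 163 and 181.

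The listed genes that kept their reads also had something in common, which was noticed after their values were seen. Among listed protein-coding genes with 50 reads (targets, PPR, NLR, receptor and silencing genes), 11 were not called. Some of these lists are of miRNA targets, so a match to a miRNA was partly set by the choice of genes. All 11 hold a stretch complementary to a mature miRNA with at most 1 mismatch, or contain a miRNA gene. AT1G06580 is a perfect complement of miR400, the HAM genes of a miR171, and AT1G62590, AT1G63330, AT1G63400 and AT5G41170 have 1 mismatch to miR161.2. Of the 13 lower ones 2 did, AT1G63130, which overlaps a miRNA gene, and AT5G43740. TAS loci and pseudogenes were left out of this count. Among them, the lower loci TAS1B, TAS1C and AT1G62860 hold such a match too. Over all 154 protein-coding loci with 50 reads, such a match was found in 15 of 133 that were not called, 2 of 14 that were lower and 0 of 7 that were higher. Whether the authors' alignment placed miRNA reads or their complement at these genes was not tested, since the table has neither read sequences nor strands.

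**Figure D4:**
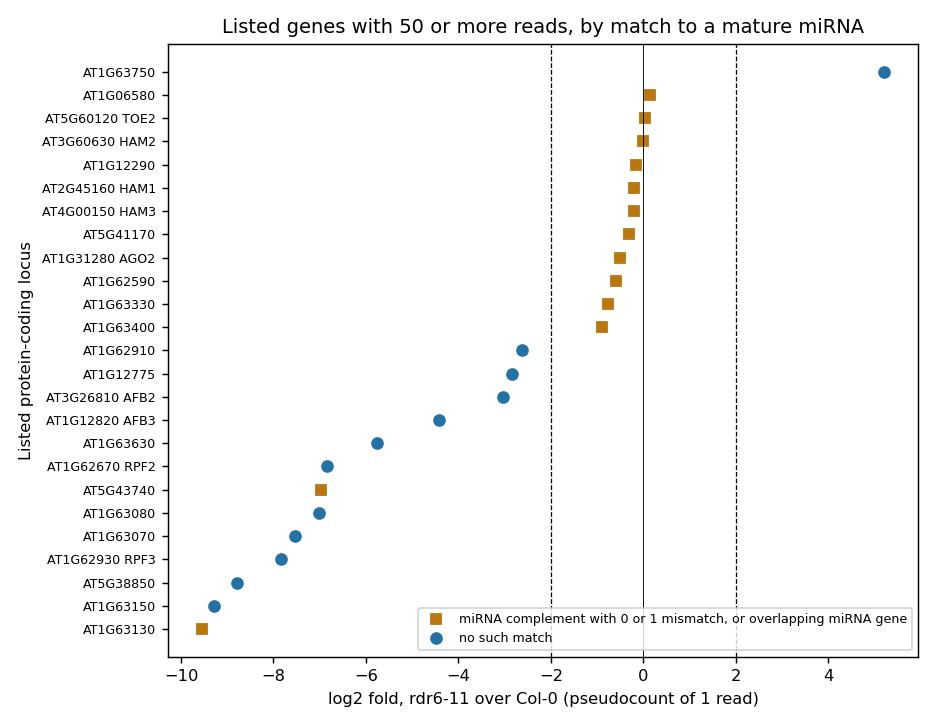
The 25 listed protein-coding genes with 50 reads or more are ordered by their log2 fold of rdr6-11 over Col-0 (x), with dashed lines at 4-fold. Squares mark genes with a complement of a mature miRNA of at most 1 mismatch or an overlapping miRNA gene, and 11 of these 13 lie between the lines, while 11 of the 12 circles lie below the lower line.

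Loci called higher in rdr6-11 were mostly outside the groups above. The 11 with 50 reads were 7 protein-coding genes (4.55% of 154), 3 chloroplast loci and 1 mitochondrial locus. XYP2, a lipid transfer-like protein gene, had 0 reads in Col-0 and 68 in rdr6-11, at least 20.9-fold higher. TIM, a triosephosphate isomerase gene, had 2 and 102, a 46.9-fold difference (12.7 to 393), and it overlaps the locus AT2G21172. SWI1, a gene of meiotic chromosome cohesion, had 13 and 72, and the F-box gene AT3G21120 22 and 109. AT2G07751 had 21 and 108, and AT2G07675 16 and 73. The 2 last named are nuclear genes annotated with an NADH oxidoreductase chain and a ribosomal protein of the S12 family, and AT2G07675 was no longer called under 3 other scalings. AT2G07675 and the mitochondrial locus ATMG00980 both have an implied length of 377 bases, and whether they share reads was not tested. Whether AT2G07751 shares reads with a mitochondrial locus was not tested either.

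Organelle loci held a larger share of reads in rdr6-11, much of it at a pair of loci. The chloroplast loci ATCG01210 and ATCG00920 had 7353 and 7343 reads in Col-0 and 36892 and 36252 in rdr6-11, 4.62-fold (4.50 to 4.73) and 4.54-fold (4.43 to 4.66) higher, and whether these near-equal counts come from shared reads was not tested. ATCG00200 had 58 and 457, and the mitochondrial locus ATMG00980 12 and 87. Over 133 chloroplast loci the share of reads was 9.57% in Col-0 and 21.2% in rdr6-11, a 2.22-fold difference (2.2 to 2.24), and over 146 mitochondrial loci 0.466% and 0.857%. Without ATCG01210 and ATCG00920 the chloroplast share was 7.75% and 12.9%, a 1.67-fold difference (1.65 to 1.68). Of 123 chloroplast loci with 10 reads 84 had a positive and 39 a negative log2 fold, with a median of 0.25. The nuclear leaf markers had 2854 and 7800 summed reads, 2.51-fold more in rdr6-11 (2.41 to 2.63), with 14 of 21 positive, 7 negative and a median log2 fold of 0.55. Without LHCA4, which had 1550 and 5519, the difference was 1.61-fold (1.5 to 1.72). None of the 21 was called. In the triple over the double mutant these sets were higher too. Chloroplast loci were 2.76-fold higher there (2.74 to 2.79) and mitochondrial loci 1.58-fold (1.53 to 1.64). The leaf markers were 5.83-fold higher (5.58 to 6.10), and 2.37-fold (2.23 to 2.51) without LHCA4. Whether fragments of abundant leaf and chloroplast RNA differ because of RDR6 or of the sample cannot be told apart with 1 library per genotype.

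Reads at miRNA genes made up 52.3% of Col-0 and 45.5% of rdr6-11, 1.15-fold lower (1.14 to 1.15). Relative to totals without organelle loci, a scaling chosen after the data were seen, the log2 difference was 0.01 in place of -0.20, so the direction turned under that scaling. Under the other scalings run it was -0.24 to -0.22, and 91 of the 129 measured miRNA genes had a negative log2 fold. Of 129 measured miRNA genes 0 were lower and 2 were higher, both at moderate read number. MIR162a had 0 and 15 reads, at least 4.6-fold higher, and MIR843 had 1 and 16. MIR162b, whose mature miRNA is identical to that of MIR162a, had 1836 and 1301, so the split of shared reads between the 2 loci was not tested as a source of the difference. The 4 ribosomal RNA loci outside the organelle genomes held 12.7% and 14.7%, protein-coding genes 9.90% and 10.06%, and pseudogenes 5.65% and 5.76%.

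The 83 higher loci of moderate read number were 68 protein-coding genes (6.79% of 1002), 12 pseudogenes, 2 miRNA genes and 1 mitochondrial locus, with 142 reads in Col-0 and 1339 in rdr6-11. AT5G36340 had 0 and 21 reads, PRS3, a phosphoribosyl pyrophosphate synthetase gene, 0 and 17, and VIP1, a bZIP factor gene, 1 and 32. The aspartate kinase gene AK-HSDH I had 1 and 24, and AT2G34310 1 and 21. REV3, a DNA polymerase gene, the mitochondrial chaperone gene mtHsc70-1, the PPR gene AT3G04750 and AT1G73650 each had 0 and 11, and the endoplasmic reticulum chaperone gene BIP3 and AT2G32150 each had 0 and 10. None of the 83 was in the TAS, PPR, NLR or auxin receptor lists.

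The same mutation was measured a second time in the decay mutants, in libraries that are separate from Col-0 and rdr6-11 but share the split in locus lengths described at the end. In the triple mutant all 22 lower loci had fewer reads, scaled to the total, than in the double, and all 22 passed the 4-fold threshold there with at least 10 reads, where 8.53% of 4539 loci did. Their median log2 fold was -5.43, against 0.31 for the 4539 loci. With at least 50 reads 18 were lower, which is 81.8% of the 22 but 17.1% of the 105 loci lower in the triple mutant.

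Some single loci had few or no reads left in both pairs, and AFB2 and AT1G62910 had a remainder in both. AT1G63130 had 420 reads in ein5-1 ski2-3 and 0 in rdr6-11 ein5-1 ski2-3, and RPF3 318 and 1. AT5G38850 had 658 and 5, AFB2 445 and 58, and AT1G62910 691 and 114. The TAS loci kept more, with 15530 and 455 reads, a 48.2-fold difference (43.9 to 53.0), of which TAS2 had 4753 and 153. Their reads in the triple mutant were thus 0.0518% of the table, against 0.0126% in rdr6-11. TAS4 had 1080 and 0.

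At moderate read number the second pair followed less closely. Of the 55 lower loci 42 had a negative log2 fold of the triple over the double mutant. Of these 55, 28 had 10 reads or more in that pair, 24 of the 28 were lower in direction, as were 40.9% of all 4539 loci, and 14 passed the threshold. The 14 include AT5G16640 (21 and 0), AGO1 (121 and 8), AT1G12300 (125 and 23) and AT1G62030, a C1 domain gene with 19 and 2 reads in the first pair and 30 and 3 in the second. AT3G26742 had 4 and 6, and DCL1 33 and 17.

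Of the 11 higher loci 10 had the same direction in the second pair and 7 passed the threshold with 10 reads, where 8.94% of all loci did. TIM had 1 read in ein5-1 ski2-3 and 267 in the triple mutant, AT1G63750 2 and 77, and XYP2 1 and 35. AT3G21120 had 81 and 94. Of the 83 higher loci of moderate read number 64 had the same direction. Among the 53 with 10 reads or more in the second pair 48 did, where 59.1% of all 4539 loci were higher in the triple mutant. Of the 83, 19 passed and 1, VIP1, passed in the other direction, with 348 and 48 reads.

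**Figure D5:**
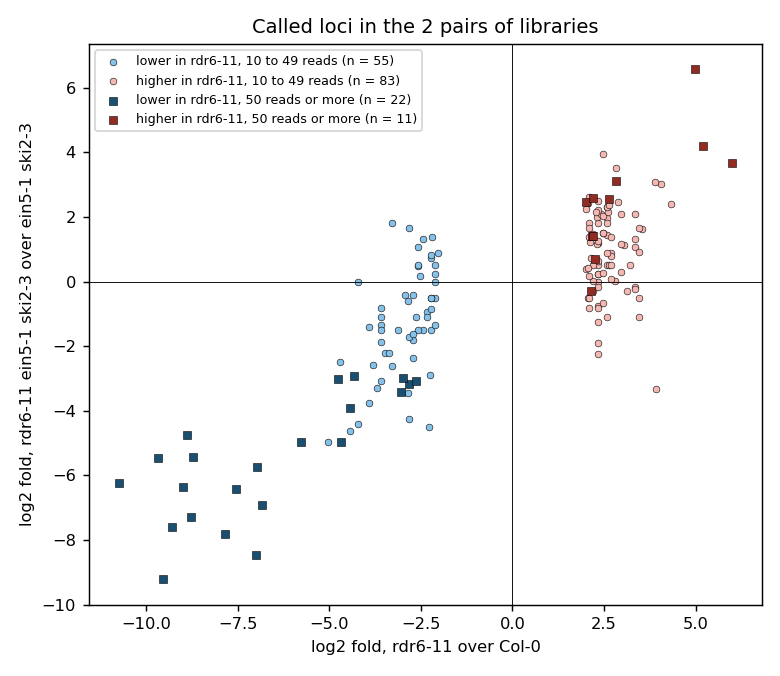
Each point is a called locus, placed by its log2 fold of rdr6-11 over Col-0 (x) and of the triple over the double mutant (y), with a pseudocount of 1 read. The 22 lower loci with 50 reads or more all lie below 0 on both axes, while loci of moderate read number scatter on either side of 0 on the y axis.

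The authors' locus lengths differed between libraries with and without the rdr6-11 allele. Dividing counts by RPKM gave a length for each locus, and it differed between Col-0 and rdr6-11 at 445 of 12348 loci with reads in both, 3.60%. Within either pair of libraries that share the RDR6 allele, Col-0 with the double mutant or rdr6-11 with the triple, it differed at 0 loci. The 2 sets of lengths coincide with the RDR6 genotype in all 4 libraries. If the authors' processing differed between the sets in other ways too, its effect and that of the mutation cannot be told apart at any locus, in either pair of libraries. Among the loci called with 50 reads the lengths differ at AT1G63630 and AT1G63750, and the other lower and higher loci with reads in both libraries had equal lengths.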

How the data were processed

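Per the file headers, the deposited table gives the authors' read count of every locus per library and an RPKM computed by the authors (reads per locus length and library total). RPKM was used for levels per length, and to recover lengths and totals (828039 for Col-0 and 887508 for rdr6-11, of which the table holds 97.6% and 99.0%). CASAVA 1.8.2, BWA and the build TAIR9 are named per the submitters' processing notes. The sources used here do not give trimming, strand, sizes or the treatment of multiple matches. Small RNA sizes and strands were not separated.

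Counts were scaled to column totals. Intervals are Clopper-Pearson 95% intervals (scipy 1.17.1), and PCR copies are not independent molecules. An additive model of the 4 libraries, with 1 degree of freedom left, was not fitted. The calling steps were tested on simulated counts with counting error only and changes well above 4-fold at loci with many reads. Calls near 4-fold, calls at moderate read number and variation between libraries were not covered. Locus names came from RefSeq TAIR10.1, which matched 32835 of 33602 loci. Because builds differ, coordinates were left out.

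Named loci are all those called with 50 reads, the 12 of largest fold per direction (ties broken by the higher count, then by identifier, which left out 3 lower and 2 higher loci tied with the last) and all list members among the moderate ones, and list members with 10 reads; others named (AT4G14610, AT4G19510, AT1G62030, AT3G05525, MIR843, MIR162b and the loci nearest the threshold) were picked after their values were seen. Members and lists were chosen with earlier results of these data known. Alternatives changed the scaling (among them edgeR 4.0.16 TMM), minimum, fold, pseudocount and classes.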

Additional observations from a re-analysis of the deposited data

Results flagged for a closer look

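Of all called loci 33 had log2 folds of opposite sign in the 2 pairs of libraries, 10 of them with 10 reads or more in the second pair. Of these 10, 2 are among the loci named by rule, and the difference between pairs was not tested. VIP1 had a log2 fold of 3.92 for rdr6-11 over Col-0 (1 and 32 reads) and of -3.33 for the triple over the double mutant (348 and 48 reads). AT3G21120 had 2.14 (22 and 109 reads) and -0.28 (81 and 94 reads).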

How the results depend on the processing

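All 22 lower loci were kept under each of 5 other scalings (median of ratios, TMM, miRNA gene reads, totals reduced by small RNA and organelle classes, and totals without organelle loci, the last chosen after the data were seen), which shifted every log2 fold by -0.05 to 0.21. Of the 11 higher loci, 10 or 11 were kept. The lower count was 982 with no minimum and 34 at a fold of 2. The higher count was 32 at a minimum of 20 reads, 7 at 100, 622 with none, 65 at a fold of 2, 3 at a fold of 8, 7 with a pseudocount of 5 reads, 32 when the interval bound had to pass 2, and 7 in nuclear protein-coding genes and pseudogenes. Loci lower in both pairs numbered 174 with no minimum. At moderate read number the lower and higher counts were 8 and 21 for 20 to 49 reads, 304 and 444 at a fold of 2, 20 and 17 at a fold of 8, 10 and 5 with a pseudocount of 5, and 27 and 29 by the interval bound.

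Scaled to miRNA genes and to totals without organelle loci, the log2 fold of summed reads was -1.55 and -1.54 in place of -1.75 for the PPR list, and -1.85 and -1.84 in place of -2.05 for the NLR list. For miRNA genes it was -0.24 (median of ratios), -0.23 (TMM), -0.22 (reduced totals) and 0.008 (without organelles), in place of -0.20. For chloroplast loci it was 1.11, 1.12, 1.35, 1.13 and 1.36 in the order of scalings above, in place of 1.15. Without ATCG00920 and ATCG01210, an alternative chosen after the data were seen, it was 0.74. There are no replicate numbers to pair by and no replicate to leave out, since each genotype has 1 library, and a model with the 2 decay backgrounds as a block was not fitted. Scaling miRNA genes to their own reads gives no value by construction. Depth limits loci with under 50 reads, where 1 read is worth over 1 RPM.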
